A study of Arabidopsis thaliana with 67 samples.

Results

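The genes described here encode the machinery that makes, processes and uses small RNAs in Arabidopsis thaliana, including the factors of RNA-directed DNA methylation (RdDM). The 36 genes were chosen by identifier for their known roles, not by a rule on their counts, out of 29696 genes in the deposited table. Earlier results of these data were known when they were chosen.

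In RdDM, polymerase IV (Pol IV) makes short transcripts that are turned into double-stranded RNA and cut by the nuclease DCL3 into small interfering RNAs. An Argonaute protein carries such an RNA to transcripts made by polymerase V (Pol V) at the matching locus, where DNA methylation is laid down. MicroRNAs are cut from hairpin transcripts by DCL1, and both kinds of small RNA are methylated at their ends by HEN1.

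By role, 5 of the genes encode subunits or assembly factors of the polymerases: NRPD1 (AT1G63020, NRPD1A in the annotation), NRPE1 (AT2G40030, NRPD1B), NRPD2 (AT3G23780, NRPD2A), NRPD4 (AT4G15950) and RDM4 (AT2G30280). Another 5 bring Pol IV to chromatin: SHH1 (AT1G15215), CLSY1 (AT3G42670, CHR38), CLSY2 (AT5G20420, CHR42), CLSY3 (AT1G05490, chr31) and CLSY4 (AT3G24340, CHR40). Pol V is brought there by 5: DRD1 (AT2G16390), DMS3 (AT3G49250), RDM1 (AT3G22680), SUVH2 (AT2G33290) and SUVH9 (AT4G13460). Downstream of Pol V act 6: IDN2 (AT3G48670), KTF1 (AT5G04290), SUVR2 (AT5G43990), MORC6 (AT1G19100, DMS11), MORC1 (AT4G36290, CRT1) and MORC2 (AT4G36280, CRH1). The Dicer-like (DCL) nucleases are DCL1 (AT1G01040), DCL2 (AT3G03300), DCL3 (AT3G43920) and DCL4 (AT5G20320), and their partners are HYL1 (AT1G09700), DRB2 (AT2G28380), DRB4 (AT3G62800), SE (AT2G27100), DDL (AT3G20550) and TGH (AT5G23080). The last 5 serve the stability, turnover or export of small RNAs: HEN1 (AT4G20910), HESO1 (AT2G39740), SDN1 (AT3G50100), HST (AT3G05040) and SGS3 (AT5G23570).

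RNA of nuclei was sequenced from ago5 mutants, ago9 mutants, ago59 mutants (read here as the double mutant of both genes) and wild type, all in ecotype Col-0. AGO5 and AGO9 encode Argonaute proteins. Seedling shoot apices were taken 7 days after germination from plants grown on soil with 16 h light and 8 h dark, and each library came from 100 sorted nuclei. Their sample titles name the stem-cell libraries "cherry" and the non-stem libraries "dapi", a red fluorescent protein and a DNA stain. Pollen nuclei of 35-day-old plants were sorted into sperm nuclei and vegetative nuclei, with 2 ng of RNA per library. Stem-cell nuclei had 8 ago5, 7 ago9, 7 ago59 and 5 wild-type libraries, and non-stem nuclei had 3, 4, 3 and 3 in the same order. Sperm nuclei had 3 libraries of each genotype, and vegetative nuclei had 3 ago5, 4 ago9, 4 ago59 and 4 wild-type libraries. The alleles, the promoter of the red reporter and whether libraries of a group came from separate plants are not given in the sources used here, so p-values measure only the spread between these libraries, which may be technical.

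Total counts per library ran between 1.41 and 5.75 M (M, 1000000) in stem-cell nuclei, 2.14 and 6.24 M in non-stem nuclei, 7.16 and 9.49 M in sperm nuclei, and 7.69 and 10.2 M in vegetative nuclei. Cell labels were compared with marker genes. A list of 4 genes of the shoot meristem summed to 87.7 to 361 counts per M counts of the library (CPM) in stem-cell nuclei and 3.37 to 49.5 CPM in non-stem nuclei. CLV3, which encodes a signalling peptide of the stem cells, was at 0 in 11 of 13 non-stem libraries. A list of 7 sperm genes summed to 2620 to 3515 CPM in sperm nuclei and 31.9 to 66.3 CPM in vegetative nuclei, though GEX2 of that list was near 0 in both. A list of 7 genes of the vegetative cell summed to 5232 to 11582 CPM in sperm nuclei and 28847 to 38381 CPM in vegetative nuclei. The mutant labels were compared with the mutated genes. AGO9 fell in ago9 stem-cell nuclei (log2 change -3.03, adjusted p = 0.0142) and in ago9 sperm nuclei (-4.17), AGO5 fell in ago5 sperm nuclei (-4.21), and both fell in ago59 sperm nuclei (AGO5 -3.79, AGO9 -4.07). AGO5 was not called in the stem-cell libraries labelled ago5 (-0.42, adjusted p = 0.919) or ago59 (-1.05, adjusted p = 0.646), nor in vegetative nuclei of ago5 (-3.19, adjusted p = 0.308) or ago59 (-1.75, adjusted p = 0.197), so the ago5 part of these labels is not marked by a called loss of AGO5 counts outside sperm nuclei. AGO9 fell in ago59 stem-cell nuclei (-2.91) and in ago9 (-3.69) and ago59 (-3.15) vegetative nuclei. Neither gene had enough counts for a test in non-stem nuclei.

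The 36 genes together took 0.0688 to 0.131% of the counts of a stem-cell library, 0.0640 to 0.0910% in non-stem nuclei, 0.0121 to 0.0236% in sperm nuclei and 0.00358 to 0.00772% in vegetative nuclei. Divided by exon length, the mean level in stem-cell nuclei was highest for DDL, a forkhead-associated protein that binds DCL1, at 47.8 CPM per kilobase (kb), followed by the shared polymerase subunit NRPD4 at 22.4, the polymerase assembly factor RDM4 at 22.0 and DCL1 at 21.1. In non-stem nuclei DDL (42.0 CPM per kb) and DCL1 (21.2) also stood high. In sperm nuclei DRB4, the double-stranded RNA-binding partner of DCL4, led at 70.9 CPM per kb, far above CLSY4 at 8.36 and DCL1 at 3.65. In vegetative nuclei the highest were TGH at 3.23, SE at 2.46, CLSY2 at 2.25 and MORC6 at 2.09 CPM per kb. Seedling and pollen libraries were made by different protocols, so no test was run between them.

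The 4 CLASSY (CLSY) genes encode chromatin remodelers that bring Pol IV to different sets of loci, and sperm and vegetative nuclei differed in which of them was highest. CLSY1 averaged 17.5 CPM in stem-cell nuclei, 6.95 CPM in non-stem nuclei, 0.557 CPM in sperm nuclei and 0.342 CPM in vegetative nuclei (means of the 4 genotype means, as for all such means here). CLSY2 averaged 4.51 CPM in stem-cell, 0.303 CPM in non-stem, 0.403 CPM in sperm and 9.49 CPM in vegetative nuclei. CLSY3 averaged 10.8 CPM in stem-cell, 1.64 CPM in non-stem, 0.0954 CPM in sperm and 0.0552 CPM in vegetative nuclei. CLSY4, in contrast, averaged 30.6 CPM in sperm nuclei, with 5.44 CPM in stem-cell, 2.57 CPM in non-stem and 0.778 CPM in vegetative nuclei. Divided by exon length, the highest of the 4 was CLSY1 in stem-cell (4.25 CPM per kb) and non-stem nuclei (1.68 CPM per kb), CLSY4 in sperm nuclei (8.36 CPM per kb) and CLSY2 in vegetative nuclei (2.25 CPM per kb). In pollen these orders held in every library, while in seedling libraries the levels of the 4 genes overlapped.

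**Figure D1:**
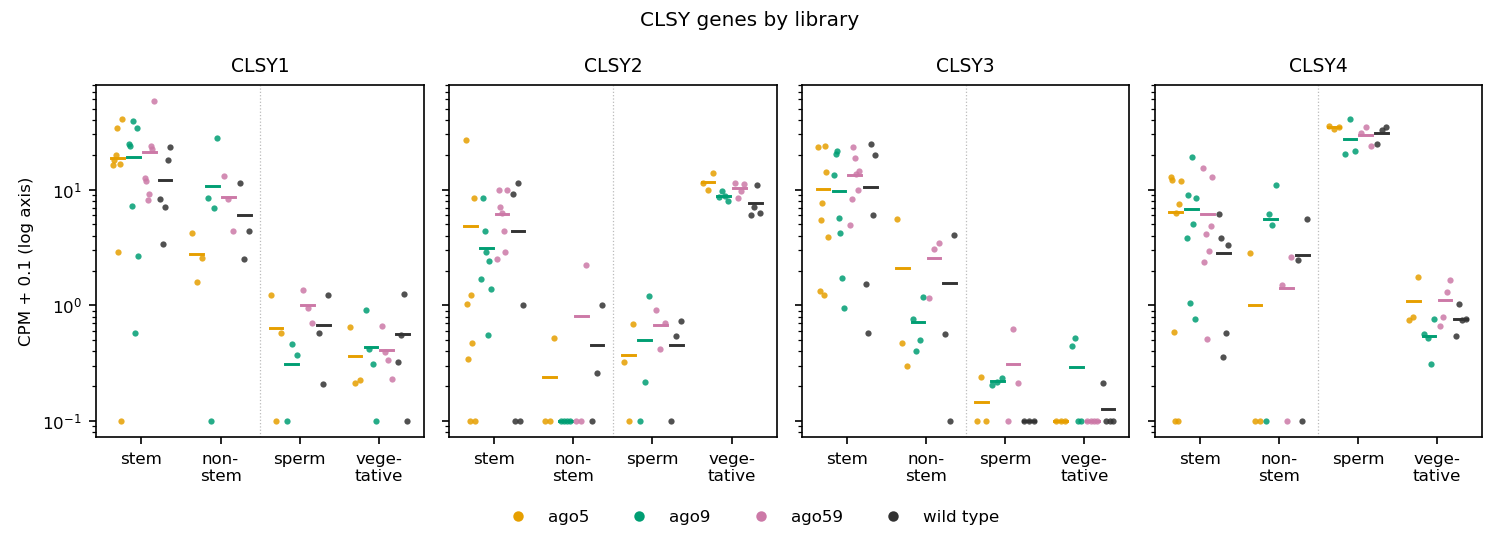
Level of the 4 CLSY genes in every library, in CPM + 0.1 on a log axis, by cell type and genotype; each point is a library and the horizontal bars are group means. CLSY4 points in sperm nuclei (20.1 to 40.8 CPM) and CLSY2 points in vegetative nuclei (5.93 to 13.7 CPM) stand above those of the other CLSY genes in the same nuclei, and CLSY3 points in non-stem nuclei reach 5.46 CPM against 24.6 CPM in stem-cell nuclei.

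The DNA upstream of CLSY2, CLSY3 and DRB4 is shown because CLSY2 and CLSY3 differed most between stem-cell and non-stem nuclei among the genes tested, and DRB4 between sperm and vegetative nuclei. Each stretch is the 250 bases before the annotated gene start, from the RefSeq TAIR10.1 assembly, written 5′ to 3′ on the gene's own (minus) strand, with matches to the motif TGGGCC in either orientation in capitals. The windows are chr5:6904243-6904492 for CLSY2, chr1:1623490-1623739 for CLSY3 and chr3:23227513-23227762 for DRB4.
CLSY2: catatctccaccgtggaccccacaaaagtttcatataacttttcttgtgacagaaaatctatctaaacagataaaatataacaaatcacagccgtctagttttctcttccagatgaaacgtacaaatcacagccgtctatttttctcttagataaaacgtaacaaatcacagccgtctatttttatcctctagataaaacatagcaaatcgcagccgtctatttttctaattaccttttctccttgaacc
CLSY3: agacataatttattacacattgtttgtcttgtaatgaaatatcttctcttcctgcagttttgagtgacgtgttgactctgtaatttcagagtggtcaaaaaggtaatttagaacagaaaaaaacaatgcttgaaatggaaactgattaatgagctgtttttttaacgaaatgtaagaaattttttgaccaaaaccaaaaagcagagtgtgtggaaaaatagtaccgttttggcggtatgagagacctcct
DRB4: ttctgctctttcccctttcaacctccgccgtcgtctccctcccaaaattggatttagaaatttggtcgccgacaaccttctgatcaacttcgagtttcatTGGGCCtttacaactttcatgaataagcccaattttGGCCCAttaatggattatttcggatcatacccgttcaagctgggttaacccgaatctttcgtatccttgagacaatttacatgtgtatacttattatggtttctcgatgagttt

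In all, 4 motifs were searched on both strands of the same window for the 36 genes and for 27443 promoters of annotated protein-coding genes, and none of the 36 windows held more than 1 kind of motif. TGGGCC, the core of the site II element known upstream of many ribosomal protein and cell-cycle genes, lay in 6 of the 36 windows (SHH1, DMS3, MORC6, MORC2, DCL3 and DRB4), or 16.7%, and in 13.7% of all promoters. The DRB4 window held it in both orientations, starting 150 and 114 bases before the gene. AACCGT, a MYB motif that the sperm regulator DUO1 can bind, lay in RDM4 alone (2.78% of the 36, 7.49% of all). The E2F motif TTTNNCGC lay in DRB2 alone (5.86% of all), and the telobox AAACCCTA in RDM1 alone (4.49% of all). The windows of CLSY2 and CLSY3 held none of the 4.

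Stem-cell nuclei were compared with non-stem nuclei of the apex, as labelled. Genes of the shoot meristem list reached 0.615% (CLV3) to 31.1% (KNAT1) of their stem-cell level in non-stem nuclei. Of the 36 genes, 7 were higher in stem-cell nuclei and none was lower, in the mean of the 4 genotypes. They were CLSY2 and CLSY3 of the Pol IV class, SUVR2, KTF1 and MORC2 of the downstream class, DCL2, and the DCL1 partner TGH. By the same test 6.93% of all 20753 genes and transposable element rows tested were called, 4.06% higher and 2.87% lower. The median log2 difference was 0.43 over the 36 genes and 0.06 over all rows tested. Of the 36 genes, 30 were above 0, and the share of all rows above 0 was not counted. A mixed sample with fewer nuclei of a type and one with less RNA per nucleus cannot be told apart in these data.

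CLSY2 differed most. Its lowest, median and highest levels were 0, 2.40 and 26.7 CPM in the 27 stem-cell libraries, against 0, 0 and 2.15 CPM in the 13 non-stem libraries. Wild-type libraries stood at 9.00, 0, 11.4, 0 and 0.914 CPM in stem-cell nuclei and at 0, 0.160 and 0.913 CPM in non-stem nuclei. The ranges overlapped, since several stem-cell libraries had no count, and all 4 ago9 non-stem libraries were at 0. The fitted log2 difference was 4.30 ± 0.94 (SE; edgeR quasi-likelihood, Benjamini-Hochberg adjusted p = 0.00202). Because of the empty libraries it depends on the prior count, and the ratio of pooled CPM was 15.9 (369 against 12 counts; 95% interval 8.98 to 31.0, counting error only).

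CLSY3 had 0.478, 8.18 and 24.6 CPM (lowest, median, highest) in stem-cell nuclei and 0, 0.670 and 5.46 CPM in non-stem nuclei. In wild type the stem-cell libraries held 1.42, 0.478, 24.6, 5.93 and 19.7 CPM and the non-stem libraries 0.468, 0 and 3.95 CPM. Most stem-cell libraries were above every non-stem library, and 2 wild-type stem-cell libraries were not. On the log2 scale it differed by 2.86 ± 0.61 (SE, adjusted p = 0.00150). Of the rest of the Pol IV class, CLSY1 differed by 1.50 ± 0.50 (adjusted p = 0.0573) and CLSY4 by 1.36 ± 0.72 (adjusted p = 0.289), neither called. The homeodomain protein SHH1, which reads histone methylation for Pol IV, averaged 15.5 CPM in stem-cell and 17.7 CPM in non-stem nuclei and was not called. CLSY1 and CLSY2 are close copies, and reads could be shared between them.

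In the downstream class 3 of 6 genes were higher. SUVR2, a SET-domain protein of transcriptional silencing, had 24.0, 37.2 and 82.2 CPM (lowest, median, highest) in stem-cell nuclei and 2.81, 18.9 and 47.8 CPM in non-stem nuclei. In wild type it held 25.7, 36.3, 42.9, 24.0 and 36.6 CPM in stem-cell nuclei and 32.8, 21.7 and 18.1 CPM in non-stem nuclei, where the highest overlapped the stem-cell libraries. All ago59 non-stem libraries, at 2.81, 10.3 and 4.34 CPM, lay below every other SUVR2 value of the apex. This gave a log2 difference of 1.27 ± 0.20 (SE, adjusted p = 1.07e-05) and 0.72 ± 0.22 (adjusted p = 0.0405) without the ago59 groups. SUVR2 overlaps AT5G44000 on the opposite strand, and the sources used here do not say whether counting used the strand.

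KTF1, a scaffold that binds Argonautes at Pol V transcripts, had 51.2, 85.2 and 128 CPM (lowest, median, highest) in stem-cell nuclei and 22.7, 51.7 and 79.8 CPM in non-stem nuclei. Its wild-type libraries did not overlap, with 93.3, 99.9, 75.2, 93.0 and 65.4 CPM in stem-cell nuclei and 31.8, 41.7 and 56.9 CPM in non-stem nuclei. The log2 difference was 0.74 ± 0.16 (SE, adjusted p = 0.00110). MORC2, one of the MORC ATPases that compact chromatin, had 10.5, 28.1 and 64.2 CPM in stem-cell nuclei and 4.85, 12.7 and 38.4 CPM in non-stem nuclei. Its wild-type libraries held 13.0, 28.1, 31.6, 33.3 and 35.6 CPM in stem-cell nuclei and 8.54, 7.48 and 9.14 CPM in non-stem nuclei, with no overlap. On the log2 scale it differed by 0.93 ± 0.28 (adjusted p = 0.0342), but the call was lost without any one of 9 libraries, with an adjusted p of up to 0.0741. These were ago5 non-stem replicate 1, ago9 stem-cell replicate 6, ago9 non-stem replicates 2, 3 and 4, ago59 non-stem replicates 1 and 3, and wild-type non-stem replicates 2 and 3. The neighbouring gene MORC1 averaged 11.8 CPM in stem-cell and 11.5 CPM in non-stem nuclei, and MORC6 11.7 CPM and 8.76 CPM in the same order, with neither called. IDN2, not called either, averaged 29.0 CPM in stem-cell and 24.7 CPM in non-stem nuclei.

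Among the nucleases, DCL2, which makes small RNAs from viral and other long double-stranded RNA, averaged 64.4 CPM in stem-cell and 44.0 CPM in non-stem nuclei (log2 difference 0.52 ± 0.15, adjusted p = 0.0232). Its mean was higher in stem-cell nuclei in 3 of the 4 genotypes, against all 4 for each other called gene. Every wild-type stem-cell library of DCL2 lay below the median of each mutant, as given below with the mutants. Leaving out ago5 non-stem replicate 1 or 2, ago59 non-stem replicate 3 or wild-type non-stem replicate 4 ended the DCL2 call (adjusted p up to 0.0571). It overlaps AT3G03305 on the same strand, so part of its counts may belong to that gene. DCL1, the microRNA nuclease, averaged 132 CPM in stem-cell and 133 CPM in non-stem nuclei (0.00 ± 0.11) and was not called. DCL3 averaged 10.2 CPM and 6.75 CPM, and DCL4, which makes trans-acting small RNAs, 17.9 CPM and 23.2 CPM in the same order, with neither called. Of the partners, TGH, an RNA-binding G-patch protein that aids DCL1, had 15.4, 34.8 and 72.9 CPM (lowest, median, highest) in stem-cell nuclei and 11.2, 21.4 and 41.2 CPM in non-stem nuclei. Its wild-type libraries overlapped throughout, at 17.4, 50.7, 27.6, 33.2 and 28.8 CPM in stem-cell nuclei and 41.2, 26.3 and 17.0 CPM in non-stem nuclei. This gave a log2 difference of 0.62 ± 0.20 (adjusted p = 0.0426), and leaving out any one of 19 of the 40 libraries, 9 stem-cell and 10 non-stem, ended the call (adjusted p up to 0.0996). TGH overlaps AT5G23070 on the opposite strand. DRB4 averaged 5.23 CPM in stem-cell and 8.92 CPM in non-stem nuclei, HYL1, the main partner of DCL1, 10.9 CPM and 14.3 CPM, and DRB2 32.3 CPM and 25.3 CPM in the same order. SE averaged 52.3 CPM and DDL 66.3 CPM in stem-cell nuclei, against 46.4 CPM for SE and 58.2 CPM for DDL in non-stem nuclei, and none of these 5 was called.

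In 3 classes no gene was called. The 5 polymerase genes had log2 differences of 0.33 to 1.14, all above 0, with a median of 0.55. The largest was NRPD1, the largest Pol IV subunit, at 21.1 CPM in stem-cell and 9.51 CPM in non-stem nuclei (adjusted p = 0.0639), and NRPD2, the second subunit of both polymerases, averaged 21.6 CPM in stem-cell and 12.3 CPM in non-stem nuclei (adjusted p = 0.0697). The Pol V subunit NRPE1 averaged 40.7 CPM and 30.5 CPM, NRPD4 18.2 CPM and 12.6 CPM, and RDM4 32.5 CPM and 25.9 CPM in the same order. The Pol V recruitment class (DRD1, DMS3, RDM1, SUVH2 and SUVH9) had a median of 0.24. Its remodeler DRD1 averaged 6.82 CPM in stem-cell and 4.58 CPM in non-stem nuclei, DMS3 and RDM1, which form a complex with DRD1, 21.5 CPM and 17.2 CPM, and 17.9 CPM and 14.6 CPM, and the readers of methylated DNA SUVH2 4.44 CPM and 4.54 CPM, and SUVH9 16.8 CPM and 24.0 CPM, each in the same order. Of the stability and export class, with a median of 0.58, SGS3, which protects templates of secondary small RNAs, averaged 11.3 CPM in stem-cell and 6.32 CPM in non-stem nuclei. HEN1 averaged 24.9 CPM and 22.6 CPM, HESO1 31.0 CPM and 28.6 CPM, SDN1 4.54 CPM and 3.15 CPM, and HST 14.7 CPM and 9.81 CPM in the same order. By genotype, 13 of the 36 genes had the higher mean in stem-cell nuclei in all 4 genotypes and 2 had it in none. The shares of all rows that did so were not counted. Each of the 36 genes overlapped between the libraries of the 2 cell types, and 0.0916% of all rows were higher without overlap.

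In the wild type alone, with 5 against 3 libraries, 34 of the genes had enough counts and none was called, beside 0.181% of all rows. An unadjusted p under 0.05 was reached by 2 of the genes and by 7.43% of all rows. The DESeq2 Wald test called KTF1 and MORC2 there, beside 1.27% of all rows. The wild-type libraries of these genes did not overlap, but the share of all rows without overlap was not counted in the wild type alone. In edgeR the smallest adjusted p was that of MORC2, with a log2 difference of 1.77 ± 0.49 (adjusted p = 0.262). Photosynthesis genes of leaf tissue summed to 25173 to 45575 CPM in stem-cell nuclei and 28312 to 56849 CPM in non-stem nuclei, and organelle and ribosomal RNA took 20.1 to 36.0% and 18.6 to 30.1% of counts in the same order. Their part in these differences was not tested. The calls for CLSY2, CLSY3, SUVR2 and KTF1 held when any library was left out, while those for MORC2, TGH and DCL2 were lost without the ago5 groups (adjusted p = 0.0961, 0.102 and 0.346) and without the ago59 groups.

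**Figure D2:**
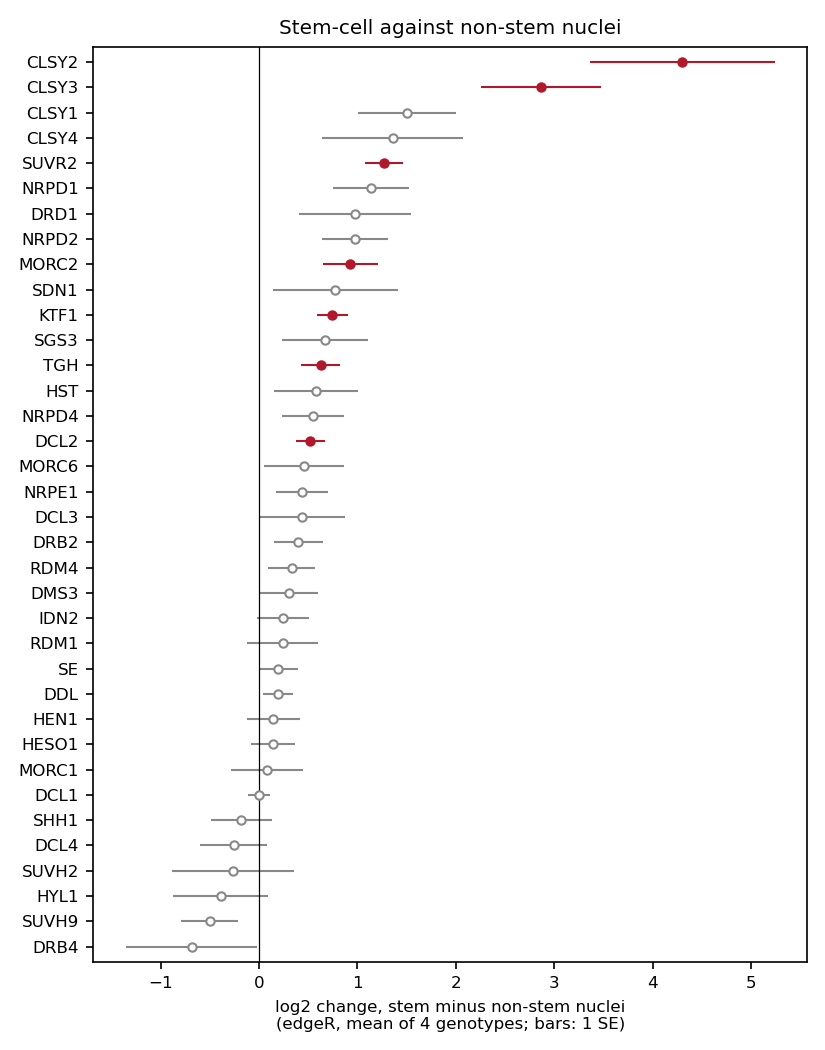
Log2 difference of stem-cell minus non-stem nuclei for the 36 genes in order of size, mean of the 4 genotypes; points are edgeR estimates, bars are 1 SE, and filled points have an adjusted p under 0.05. The 7 filled points all lie above 0, between DCL2 at 0.52 and CLSY2 at 4.30.

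Sperm nuclei were compared with vegetative nuclei, the 2 kinds of nucleus that a pollen grain carries. Relative to the other RNA of the library, DRB4, NRPD1, CLSY4, IDN2, DCL1, DDL and RDM4 were higher in sperm nuclei. In vegetative nuclei MORC6, CLSY2, TGH, KTF1, DCL3 and HEN1 were higher. The amount of RNA per nucleus was not measured. Only 15 of the 36 genes had enough counts in pollen for a test, and the 13 named were called, 7 higher and 6 lower in sperm nuclei. Nearly every row tested differed between these nuclei, with 94.6% of 12025 rows called (46.3% higher, 48.3% lower), so the members' share says nothing particular about them. In 6 of the higher and 4 of the lower genes no library of one kind overlapped the other, beside 36% and 32.5% of all rows.

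In the polymerase class, NRPD1 had 1.21, 1.90 and 3.34 CPM (lowest, median, highest) in the 12 sperm libraries and 0, 0 and 0.386 CPM in the 15 vegetative libraries. The wild-type libraries held 1.55, 1.65 and 2.26 CPM in sperm nuclei and 0.335, 0, 0.386 and 0 CPM in vegetative nuclei. All sperm libraries were above all vegetative libraries. The pooled counts were 211 against 7, a 39.2-fold higher level in sperm nuclei (95% interval 18.7 to 98.6, counting error only), and the fitted log2 difference of 5.88 ± 0.44 (adjusted p = 4.55e-13) depends on the prior count. NRPE1, the largest Pol V subunit, and NRPD2 had too few counts for a test. Divided by exon length, NRPD1 stood at 0.388 CPM per kb and NRPE1 at 0.0122 CPM per kb in sperm nuclei, whereas in stem-cell nuclei they stood at 3.93 and 6.13 CPM per kb. RDM4 averaged 3.58 CPM in sperm and 1.44 CPM in vegetative nuclei (log2 1.39 ± 0.19, adjusted p = 4.48e-08), with overlapping libraries.

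CLSY4 was higher and CLSY2 lower in sperm nuclei. CLSY4 had 20.1, 33.1 and 40.8 CPM (lowest, median, highest) in sperm nuclei and 0.214, 0.659 and 1.66 CPM in vegetative nuclei. In wild type it held 24.7, 32.9 and 34.9 CPM in sperm nuclei and 0.447, 0.921, 0.644 and 0.665 CPM in vegetative nuclei, and no library overlapped. The log2 difference was 5.45 ± 0.13 (SE, adjusted p = 4.35e-28). CLSY2 had 0, 0.378 and 1.1 CPM in sperm nuclei and 5.93, 9.62 and 13.7 CPM in vegetative nuclei. Its wild-type libraries held 0, 0.439 and 0.628 CPM in sperm nuclei and 5.93, 7.02, 11.0 and 6.20 CPM in vegetative nuclei, again without overlap. On the log2 scale it differed by -4.47 ± 0.24 (adjusted p = 4.14e-18), and pooled CPM was 23.5-fold lower in sperm nuclei (95% interval 17.1 to 33.0, counting error only). CLSY1 and CLSY3 had too few counts in pollen for a test, and SHH1 had no count in any sperm library and 6 in all vegetative libraries.

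Of the factors that act with or after Pol V, IDN2 stood on the sperm side and KTF1 and MORC6 on the vegetative side. IDN2, which binds double-stranded RNA, had 1.24, 2.68 and 5.18 CPM (lowest, median, highest) in sperm nuclei and 0, 0.114 and 0.520 CPM in vegetative nuclei. In wild type it held 3.34, 2.96 and 3.77 CPM in sperm nuclei and 0.335, 0.230, 0.515 and 0.111 CPM in vegetative nuclei, and no library overlapped. This gave a log2 difference of 4.27 ± 0.33 (SE, adjusted p = 5.62e-14). MORC6 had 0, 0.226 and 1.38 CPM in sperm nuclei and 2.68, 5.02 and 8.07 CPM in vegetative nuclei. In wild type it held 0, 0.439 and 1.38 CPM in sperm nuclei and 2.68, 3.68, 4.25 and 4.76 CPM in vegetative nuclei. All sperm libraries lay below all vegetative libraries, and the ago5 sperm libraries had no count. The fitted log2 difference of -4.80 ± 0.33 (adjusted p = 1.20e-14) depends on the prior count, and pooled CPM was 17.2-fold lower in sperm nuclei (95% interval 12.1 to 25.4, counting error only).

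KTF1 had 0, 0.470 and 1.20 CPM (lowest, median, highest) in sperm nuclei and 2.09, 2.85 and 5.04 CPM in vegetative nuclei. Its wild-type libraries held 0.956, 0 and 0.251 CPM in sperm nuclei and 2.24, 3.91, 2.32 and 3.40 CPM in vegetative nuclei, without overlap. The log2 difference was -2.51 ± 0.28 (SE, adjusted p = 3.65e-10). MORC2 lay the other way from MORC6 in its counts, with 62 over all sperm libraries and 3 over all vegetative libraries, and was too low for the test. Of the Pol V recruitment class only SUVH9, a reader of methylated DNA, was tested, and it was not called (log2 0.71, adjusted p = 0.0676). Its close copy SUVH2 had 50 counts over all sperm and 4 over all vegetative libraries, and the remodeler DRD1 had 6 over all sperm and 56 over all vegetative libraries.

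Among the 15 genes tested, DRB4 differed most. It had 69.7, 91.5 and 136 CPM (lowest, median, highest) in sperm nuclei and 0.458, 1.48 and 2.44 CPM in vegetative nuclei. In wild type it held 75.0, 91.3 and 136 CPM in sperm nuclei and 0.671, 1.38, 2.06 and 2.44 CPM in vegetative nuclei. Every sperm library was far above every vegetative library. On the log2 scale it differed by 6.16 ± 0.12 (SE, adjusted p = 4.50e-30), and pooled CPM was 65.8-fold higher in sperm nuclei (95% interval 57.1 to 76.3, counting error only). The nuclease that DRB4 assists, DCL4, had only 26 counts over all sperm and 4 over all vegetative libraries and was not tested.

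DCL1 had 13.8, 23.9 and 32.3 CPM (lowest, median, highest) in sperm nuclei and 3.24, 5.79 and 9.47 CPM in vegetative nuclei, with 18.2, 23.2 and 32.3 CPM in wild-type sperm and 3.24, 5.06, 6.70 and 6.76 CPM in wild-type vegetative nuclei. The libraries did not overlap, and the log2 difference was 1.98 ± 0.10 (SE, adjusted p = 2.34e-19). On the opposite strand, the DCL1 gene overlaps AT1G01050 (up to 101 CPM over all libraries) and the DCL3 gene overlaps AT3G43930 (up to 7.48 CPM). DCL3 was lower in sperm nuclei, at 0, 0.541 and 2.01 CPM in sperm nuclei and 0.910, 2.40 and 4.32 CPM in vegetative nuclei. Its wild-type libraries overlapped, at 1.20, 1.76 and 0 CPM in sperm nuclei and 1.68, 1.61, 2.45 and 3.43 CPM in vegetative nuclei. The log2 difference of DCL3 was -1.54 ± 0.31 (adjusted p = 3.03e-05) in the mean of the 4 genotypes, and -1.13 (adjusted p = 0.0741) in the wild type alone, where it was called only without wild-type sperm replicate 2, without the low-count filter (adjusted p = 0.0453) and with nuclear genes only (0.0446).

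DDL had 2.75, 3.95 and 5.86 CPM (lowest, median, highest) in sperm nuclei and 0.659, 1.37 and 2.47 CPM in vegetative nuclei, and in wild type 5.86, 3.51 and 4.27 CPM in sperm nuclei and 0.895, 1.50, 1.42 and 1.22 CPM in vegetative nuclei. No library overlapped, and the log2 difference was 1.57 ± 0.16 (SE, adjusted p = 8.64e-11). TGH, another partner of DCL1, had the opposite pattern, with 0.242, 0.539 and 2.04 CPM in sperm nuclei and 7.49, 9.98 and 14.3 CPM in vegetative nuclei. Its wild-type libraries held 0.359, 0.439 and 0.377 CPM in sperm nuclei and 7.49, 8.98, 11.7 and 11.4 CPM in vegetative nuclei, without overlap. Its log2 difference was -3.68 ± 0.18 (adjusted p = 1.63e-19). SE, a zinc-finger partner of DCL1, averaged 7.34 CPM in sperm and 6.52 CPM in vegetative nuclei and was not called (log2 0.27, adjusted p = 0.0653).

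HEN1 had 0.632, 1.22 and 3.46 CPM (lowest, median, highest) in sperm nuclei and 2.57, 3.93 and 7.41 CPM in vegetative nuclei. Its wild-type libraries overlapped, at 1.67, 2.74 and 1.26 CPM in sperm nuclei and 2.57, 4.49, 3.99 and 4.21 CPM in vegetative nuclei. This gave a log2 difference of -1.50 ± 0.18 (SE, adjusted p = 1.88e-09). In the wild type alone it was -0.98 (adjusted p = 0.0125), a call lost with DESeq2 (adjusted p = 0.218), with the relative log expression (RLE) scaling of DESeq2 (adjusted p = 0.179) and without wild-type sperm replicate 3. The remaining genes for small RNA turnover and export were too low for a test. HESO1, which adds uridine to unmethylated small RNAs, had 54 counts over all sperm and 1 over all vegetative libraries. SDN1, an exonuclease of small RNAs, had 1 over all sperm and 85 over all vegetative libraries, and HST, the exportin-like export factor of microRNAs, had 4 and 68 in the same order.

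The 21 genes left out of the pollen test, among them SUVR2, MORC1, DCL2, HYL1, DRB2, RDM1, DMS3, NRPD4 and SGS3, had at most 62 counts over all sperm libraries and 85 over all vegetative libraries. In the wild type alone 14 genes were tested and 12 called, 7 higher and 5 lower in sperm nuclei, beside 91.1% of all rows (45% higher, 46.1% lower). Scaling matters in pollen, because RLE put the median of all rows at 0.35 and the main scaling put it at -0.16, a shift of 0.51 on the log2 scale. The directions of the 13 called genes did not depend on it, while SE and SUVH9 were called higher with RLE and with DESeq2. Genes of the vegetative cell reached 4.36 to 33.1% of their vegetative level in sperm nuclei. In vegetative nuclei, 6 of the 7 sperm genes reached 0.957 to 3.70% of their sperm level (GEX2 had no count in vegetative and 0.117 CPM in sperm nuclei). The genes called lower in sperm nuclei reached 4.25% (CLSY2) to 35.2% (HEN1) of their vegetative level there, with DCL3 at 34.4%. Those called higher reached 1.51% (DRB4) to 40.2% (RDM4) of their sperm level in vegetative nuclei, with NRPD1 at 2.51% and CLSY4 at 2.55%. The part of RNA from the other kind of nucleus in these values was not tested.

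**Figure D3:**
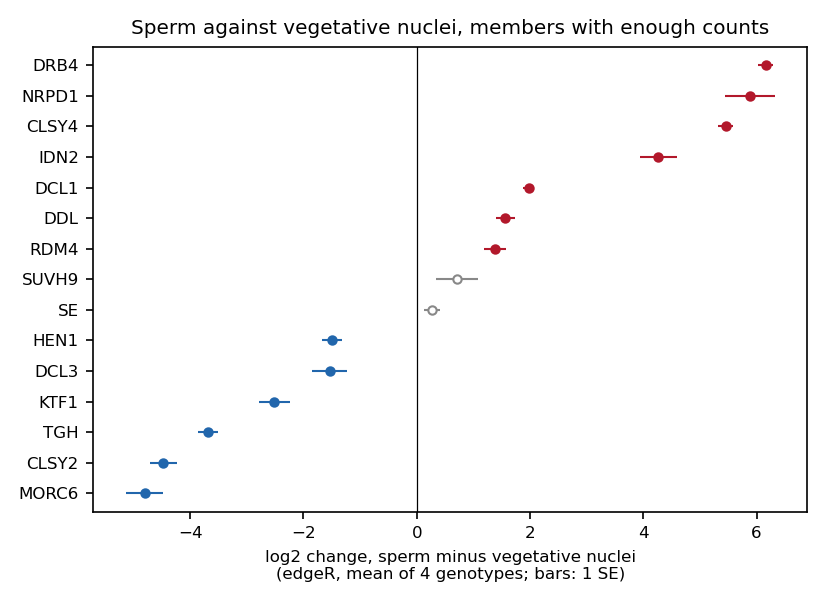
Log2 difference of sperm minus vegetative nuclei for the 15 genes with enough counts in order of size, mean of the 4 genotypes; points are edgeR estimates, bars are 1 SE, and filled points have an adjusted p under 0.05. The points run between MORC6 at -4.80 and DRB4 at 6.16, with SE and SUVH9 open near 0.

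**Figure D4:**
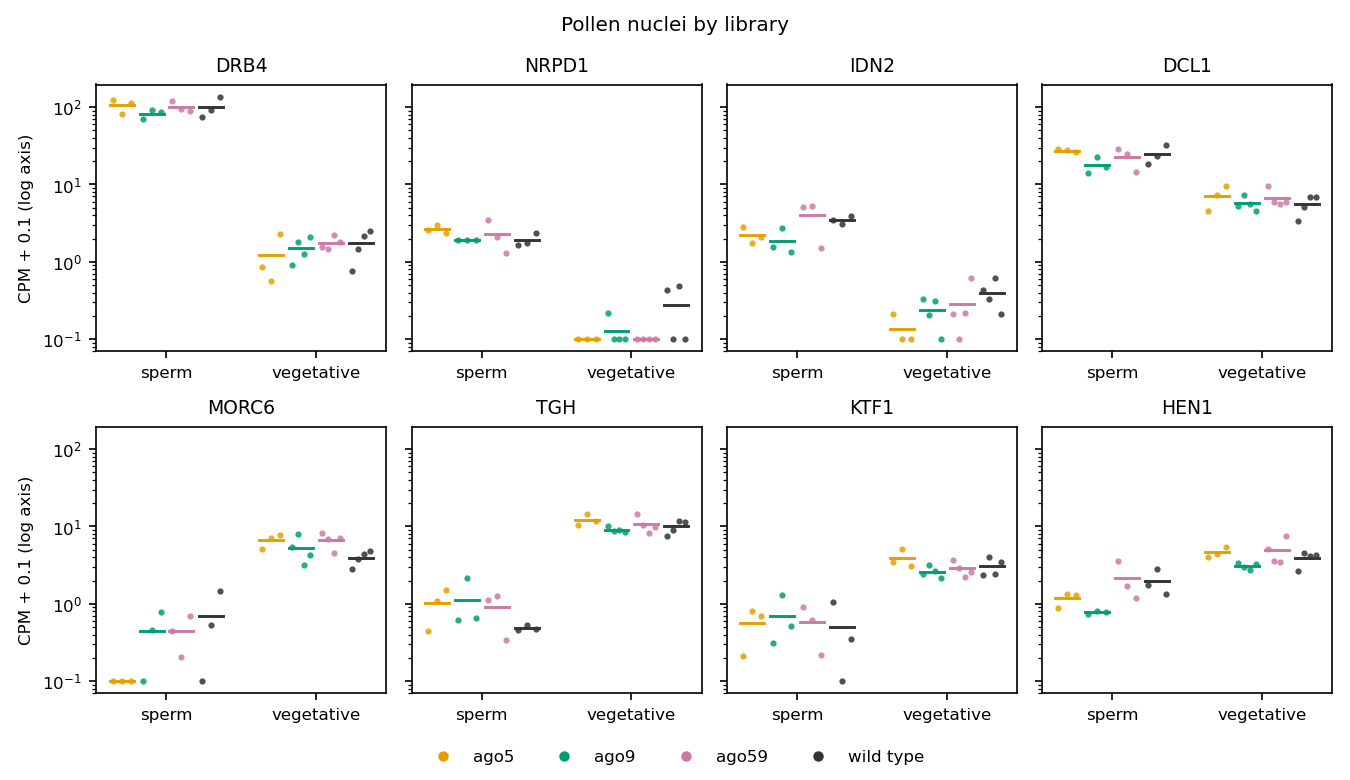
Level of 8 genes in every sperm and vegetative library, in CPM + 0.1 on a log axis, by genotype; horizontal bars are group means. DRB4, NRPD1, IDN2 and DCL1 points are higher in all sperm than in all vegetative libraries, MORC6, TGH and KTF1 points are lower in all sperm libraries, and HEN1 points overlap.

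The mutants were compared with wild type within each cell type, to see whether loss of these Argonautes goes with a change in the machinery around them. No gene was called in any of the 12 comparisons. Over these, 279 tests of a member were made and the smallest adjusted p was 0.108. An unadjusted p under 0.05 was reached in 17, or 6.09%, and in 10.2% of the tests of all rows. The shares of all rows called in ago5, ago9 and ago59 were 1.33, 0.671 and 2.94% in stem-cell nuclei, 0.382, 0.245 and 1.2% in non-stem nuclei, 0.0312, 3.37 and 0.145% in sperm nuclei and 0.0111, 0.1 and 1.69% in vegetative nuclei. All 36 genes were tested in stem-cell nuclei, 34 in non-stem, 11 in sperm and 12 in vegetative nuclei. The 3 mutants share the wild-type libraries. In stem-cell nuclei, photosynthesis genes summed to 38740 to 45575 CPM in wild type and at most 33806, 34323 and 33040 CPM in ago5, ago9 and ago59. In non-stem nuclei they summed to 50821 to 56849 CPM in wild type and at most 41922, 34861 and 33334 CPM in the same order. The part of this difference in the mutant comparisons was not tested.

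In stem-cell nuclei, DCL2 had the smallest p in ago5 and in ago59. It stood at 44.2, 68.9 and 139 CPM (lowest, median, highest) in ago5, 48.2, 68.8 and 94.2 CPM in ago9 and 53.9, 64.2 and 97.5 CPM in ago59, against 31.6, 42.9, 47.3, 43.3 and 43.9 CPM in wild type. The mutant medians were all above the highest wild-type library, and the ranges overlapped in ago5 alone. The log2 difference was 0.79 ± 0.24 in ago5 (SE, adjusted p = 0.112) and 0.59 ± 0.25 in ago59 (adjusted p = 0.288). DESeq2 called DCL2 in ago5 (adjusted p = 0.0251), beside 2.76% of all rows, as did edgeR without ago5 stem-cell replicate 5. In ago9, DCL3 had the smallest p, at 5.49, 13.6 and 32.9 CPM in ago9 against 2.36, 7.51, 0, 7.08 and 2.53 CPM in wild type (log2 1.83 ± 0.81, adjusted p = 0.529).

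In non-stem nuclei, SUVR2 in ago59 was nearest to a call. Its libraries held 2.81, 10.3 and 4.34 CPM in ago59 against 32.8, 21.7 and 18.1 CPM in wild type, without overlap. On the log2 scale it differed by -2.20 ± 0.64 (SE, adjusted p = 0.108), and DESeq2 called it (adjusted p = 0.0186), beside 2.99% of all rows. DCL4 had the smallest p in ago5 and in ago9, at 17.8, 22.9 and 43.6 CPM in ago5 and 11.6, 36.0, 13.7 and 40.3 CPM in ago9, against 3.74, 16.7 and 7.61 CPM in wild type. Its log2 differences were 1.42 ± 0.66 in ago5 (adjusted p = 0.552) and 1.22 ± 0.63 in ago9 (adjusted p = 0.706).

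In sperm nuclei, HEN1 stood at 0.632, 0.719 and 0.688 CPM in ago9 against 1.67, 2.74 and 1.26 CPM in wild type, without overlap (log2 -1.29 ± 0.53, adjusted p = 0.200). IDN2 stood at 2.73, 1.68 and 2.01 CPM in ago5 against 3.34, 2.96 and 3.77 CPM in wild type (log2 -0.72 ± 0.39, adjusted p = 0.993). SUVH9 stood at 2.88, 3.06 and 0.121 CPM in ago59 against 0.239, 0.768 and 0.753 CPM in wild type, a spread set by the third ago59 library (log2 1.66 ± 0.77, adjusted p = 0.635). The first 2 sets did not overlap, yet rest on few counts and were picked for the smallest p. The share of all rows without overlap was not counted in any mutant comparison.

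In vegetative nuclei, CLSY2 stood at 11.4, 9.73 and 13.7 CPM in ago5 against 5.93, 7.02, 11.0 and 6.20 CPM in wild type (log2 0.46 ± 0.17, adjusted p = 0.328). MORC6 stood at 8.07, 6.87, 4.42 and 6.89 CPM in ago59 against 2.68, 3.68, 4.25 and 4.76 CPM in wild type (log2 0.48 ± 0.22, adjusted p = 0.236). HEN1 stood at 3.25, 2.85, 2.67 and 3.19 CPM in ago9 against 2.57, 4.49, 3.99 and 4.21 CPM in wild type (log2 -0.40 ± 0.23, adjusted p = 0.890). Libraries overlapped in all 3. Whether the genotype effect differed between cell types was tested jointly over the mutants. No gene was called in the 36 of the apex (SUVR2 lowest, edgeR adjusted p = 0.583) or the 15 of pollen (MORC6 lowest, adjusted p = 0.272), beside 0.00482 and 0.0166% of all rows.

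**Figure D5:**
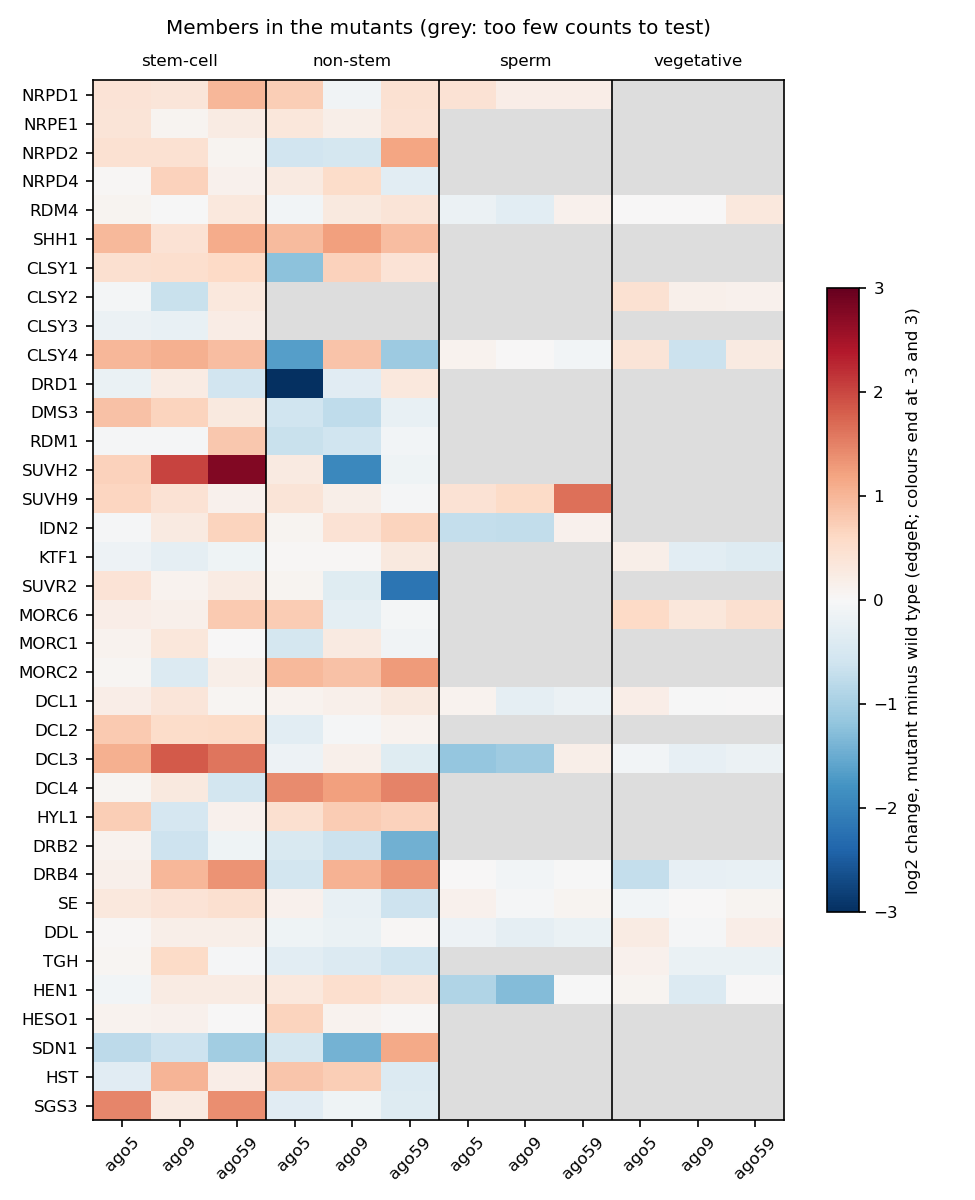
Log2 change of each mutant against wild type for the 36 genes in the 4 cell types; colours end at -3 and 3, and grey marks too few counts for a test. No cell has an adjusted p under 0.05; SUVR2 in ago59 non-stem nuclei (-2.20) is nearest.

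Other genes of the pathway were counted from a list of 39 that excludes the 36. That list too was chosen with earlier results of these data known. In stem-cell against non-stem nuclei, 37 were tested and 7 were higher, with none lower, beside 6.93% of all rows called (4.06% higher, 2.87% lower). Among them were the Argonautes AGO4 (log2 1.00), AGO6 (2.56), AGO7 (1.83) and AGO1 (0.44), the second-subunit copy NRPD2B (0.94), the histone methyltransferase SUVH4 (1.49) and MORC3 (0.77). In sperm against vegetative nuclei, 18 were tested, 13 were higher and 5 were lower, where 94.6% of all rows were called (46.3% higher, 48.3% lower), so a count near all of them is not a result about this list. The higher ones included MORC4 (log2 6.50), the maintenance DNA methyltransferase MET1 (6.26), the RNA-dependent RNA polymerase RDR2 (6.21), which works with Pol IV, and the RdDM methyltransferase DRM2 (4.56). The lower ones included FDM5 (-3.53), a relative of IDN2, and CPL1 (-0.33), which was higher instead with RLE and with DESeq2. In the 12 mutant comparisons the only call was FDM4 in ago9 sperm nuclei (log2 -0.91, adjusted p = 0.0182), where 3.37% of all rows were called. Genes of the vegetative cell summed to 10147 to 11582 CPM in ago9 sperm nuclei, against 6929 to 7804 CPM in wild-type sperm nuclei. Sperm genes summed to 2620 to 2889 CPM in ago9 and 2948 to 3251 CPM in wild type. The part of these differences in the FDM4 call was not tested.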

How the data were processed

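The authors deposited 1 table of estimated counts per gene or transposable element row, not normalized, of which 7.58% of values are not whole. The submitters' processing notes name the build TAIR10 and the tool DESeq2. The aligner, the counting tool, strand handling and any use of molecular identifiers are not given in the sources used here. Per the labels, seedling libraries used Smart-seq3 and pollen libraries Smart-seq2.

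For 60 of the 67 libraries the column name gave the sample. The other 7, of wild-type pollen, carry the number 21 in place of a genotype and were assigned because every other pollen column names a mutant. No pair of libraries was identical. The members and lists were chosen with earlier results of these data known.

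Counts were rounded and tested with edgeR 4.0.16 quasi-likelihood (R 4.3.3), with trimmed mean of M-values (TMM) scaling, filterByExpr (minimum count 10, minimum total 15) and Benjamini-Hochberg adjustment over all rows tested. An adjusted p under 0.05 is a call, and unless another tool is named each adjusted p comes from this test. Cell-type contrasts were averaged over the 4 genotypes or taken in the wild type, and each mutant was compared within its cell type in a fit of all 4 genotypes. The step was tested on simulated counts. CPM divides by all counts of a library, and a standard error is the log2 difference divided by the square root of F. Pooled ratios have exact conditional binomial intervals (scipy 1.17.1) that cover counting error only, since reads are not independent molecules.

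Library values are given for up to 6 called genes per direction with the largest change in each cell-type comparison, and for the gene with the smallest p where a mutant comparison has no call. Other genes are named to complete a family or class. Alternatives were RLE scaling, no low-count filter, DESeq2 1.42.0, robust quasi-likelihood, nuclear genes only, the replicate number as a block, other sets of groups in the fit, and leaving out each library. Averages without the ago5 or the ago59 groups were added after seeing the data. Coordinates and upstream sequence come from RefSeq TAIR10.1, in which all 36 identifiers were found.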

Additional observations from a re-analysis of the deposited data

Results flagged for a closer look

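In 5 of 72 groups of 4 to 10 libraries, 1 library lay far from the others of its group. Chance flags about 1 in 20 groups. CLSY2 stood at 26.7 CPM in ago5 stem-cell replicate 1, with the next library at 8.34 CPM. DCL1 stood at 9.44 CPM in ago59 vegetative replicate 1, with the next at 5.85 CPM. DCL2 was low in wild-type stem-cell replicate 3, at 31.6 CPM with the next at 42.9 CPM. MORC2 stood at 56.1 CPM in ago9 stem-cell replicate 6, with the next at 22.7 CPM, and its call between stem-cell and non-stem nuclei was lost without that library. NRPD1 stood at 0.116 CPM in ago9 vegetative replicate 1, which is 1 count, with the other 3 libraries at 0.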

How the results depend on the processing

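Under the alternatives, 121 recomputed counts of called genes stayed within 1.5 times the reported count and 7 did not. Most of these concern a reported count of 0, for which staying within the range means staying at 0. Such are the mutant comparisons, the tests of genotype by cell type, and stem-cell against non-stem nuclei in the wild type. No direction was reversed for the genes chosen for library values in each comparison. The other genes were not checked for this. In the list of other pathway genes, CPL1 was called lower in sperm nuclei (log2 -0.33) but higher with RLE (0.19) and DESeq2 (0.19). Stem-cell against non-stem nuclei gave 4 genes without the ago5 groups, beside 3.34% of all rows. That comparison gave 1 (SUVR2) with the replicate block, where calls over all rows fell to 480 of 20753, against 1439 without the block. DESeq2 called 2 genes there in the wild type, beside 1.27% of all rows. It called 1 in ago5 stem-cell nuclei and 1 in ago59 non-stem nuclei, beside 2.76 and 2.99% of all rows. Without the low-count filter, sperm against vegetative nuclei gave 25 genes (16 higher, 9 lower), beside 38.5% of all rows (94.6% with the filter). The pollen test of genotype by cell type without the filter gave 1 (MORC6, edgeR adjusted p = 0.0159), beside 0.646% of all rows. Leaving out a library gave 5 to 8 genes between stem-cell and non-stem nuclei and 0 in the wild type, 13 to 15 between sperm and vegetative nuclei and 11 to 13 in the wild type, 0 to 1 in ago5 stem-cell nuclei (DCL2, without ago5 stem-cell replicate 5) and 0 in all other comparisons. Same-numbered libraries did not vary together (highest correlation 0.130), so the numbers do not pair them. CLSY1 was called in stem-cell nuclei by DESeq2, robust quasi-likelihood, without the filter and with nuclear genes only. The biological coefficient of variation was 0.749 in seedling nuclei, where all 36 genes were tested, and 0.177 in pollen, where 21 of the 36 had too few counts for a test.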
